A study of Mus musculus with 12 samples.

Results

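The glycolytic enzymes described here are the products of 10 genes, Hk1, Hk2, Pfkl, Pfkm, Pfkp, Aldoa, Gapdh, Pgk1, Pkm and Ldha, selected by gene symbol from the 57490 genes of the deposited count table. The symbols matched 11 entries of the table, because Aldoa is listed under a second identifier (ENSMUSG00000114515) that held 0 to 9 counts per mouse and was too low to be tested. The other 10 entries, with at least 16 counts in each mouse, were tested along with 17431 genes in all.

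Kidney mRNA was sequenced from 12 male mice aged 13 weeks, split evenly into 3 groups with n = 4. Ctrl mice were db/m, heterozygous for the diabetes allele of the leptin receptor gene (db/+) on the BKS background, and the label also calls them wild-type. The Model mice were db/db (BKS.Cg-Dock7m +/+ Leprdb/JNju), without a working leptin receptor, and had been chosen for a high random blood glucose. The YHY mice were db/db mice given a water extract of Yiqi Huoxue Yangyin Decoction, a herbal formula, at 6.24 g/mL by gavage once a day for 4 weeks, at a volume of 50 µL for each 10 g that a mouse weighed, whereas Ctrl and Model mice received purified water. The sample labels name whole kidney tissue and the series description names renal cortex, and which of the study's dose groups was sequenced is not stated. The comparison of Model with Ctrl addressed the change with diabetes and that of YHY with Model the change with treatment. Library totals ran from 29632718 to 33276634 counts in Ctrl mice, from 24415658 to 29784346 in Model mice and from 25149764 to 29698342 in YHY mice.

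Glycolysis splits glucose into pyruvate in the cytosol. Hexokinases trap glucose as its phosphate, phosphofructokinases take the committed step, aldolase cleaves the sugar, and the lower part of the pathway, from glyceraldehyde-3-phosphate dehydrogenase to pyruvate kinase, returns ATP and NADH, after which lactate dehydrogenase interconverts pyruvate and lactate. In the kidney, proximal tubule cells burn mainly fatty acids and make glucose, whereas more distal nephron segments rely more on glycolysis.

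In the diabetic kidney, Pgk1 (ATP-making phosphoglycerate kinase), Ldha (lactate dehydrogenase) and Pfkm (a phosphofructokinase) fell by 1.53, 1.29 and 0.97 on the log2 scale (SE 0.15, 0.15 and 0.16, n = 4 mice a group, adjusted P below 0.05 by edgeR's quasi-likelihood test). Thus 3 of the 10 genes fell, while 0 rose, at an unadjusted P below 0.05 and by DESeq2 as well. Among all genes tested, 18.5% fell and 19.6% rose, and with so few genes the difference from that background is no result about the group as a whole. The median log2 fold change was -0.20 for the 10 genes and 0.04 for all genes tested. With library size alone in place of TMM and no mitochondrial transcripts, both medians were higher, at 0.11 and 0.37. Leaving out Ctrl 4 turned the median of the 10 genes to 0.0362 (all genes 0.0109), and leaving out Ctrl 4 and Model 1 together gave 0.0716. It lay lower with library size alone, at -0.63 (all genes -0.39), and without Ctrl 2, Model 1 and YHY 4, at -0.40 (all genes -0.03). After treatment, Ldha fell by a further 0.92 (SE 0.15) and was the 1 gene of the 10 that passed the test in YHY against Model, in which 7.62% of all genes fell and 5.63% rose. Of the 10 genes 0 rose by edgeR or by DESeq2, and 1, Pfkm, was higher at an unadjusted P below 0.05. There the median log2 fold change was 0.17 for the 10 genes and 0.02 for all genes. The median of the 10 genes was 0.0724 without YHY 3, 0.0890 without Model 2, 0.32 without Ctrl 2, Model 1 and YHY 4, and 0.33 with library size alone and no mitochondrial transcripts (all genes 0.16). Both comparisons use the same Model mice and are not independent of each other.

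**Figure D1:**
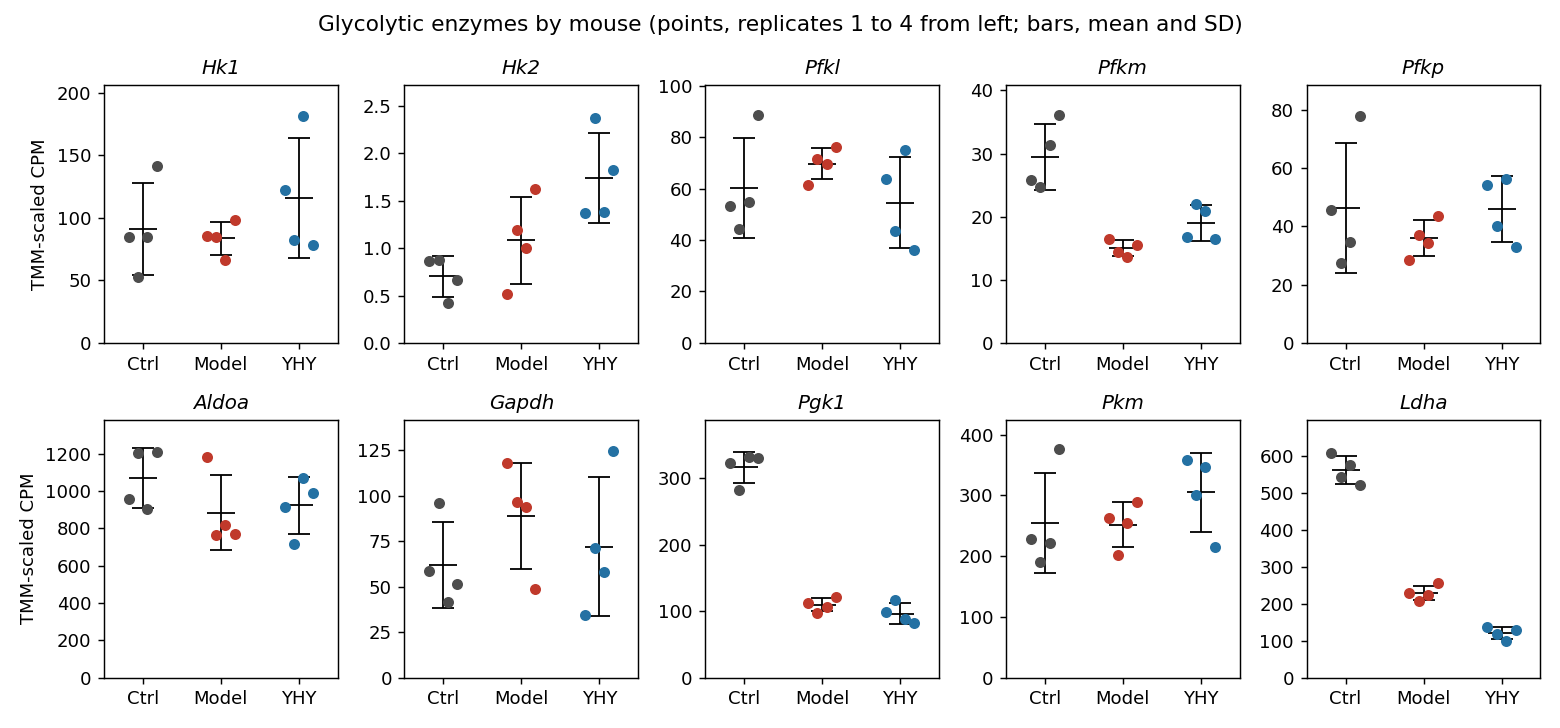
Counts relative to the TMM-scaled library total (CPM, y axis, from 0) of each of the 10 genes in the 4 mice of each group (x axis), with the mean and SD as bars. Pgk1 and Ldha of all Ctrl mice lie above those of all Model and YHY mice, Ldha of the YHY mice (100.2 to 137 CPM) lies below that of the Model mice (209 to 255 CPM), and Ctrl 4 is the highest Ctrl mouse for Hk1, Pfkl, Pfkm, Pfkp, Aldoa and Pkm.

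Levels between genes were compared as FPKM, the TMM-scaled CPM divided by the deposited gene length in kilobases. In Ctrl, Aldoa led with 367 ± 55.3 FPKM (mean ± SD, n = 4 mice, as for all values of this form), followed by Ldha (170.0 ± 11.6), Pgk1 (141 ± 10.5) and Pkm (50.8 ± 16.5), and none of these neighbours overlapped between mice. Gapdh, Hk1, Pfkl and Pfkm formed the next block, from 15.0 to 8.83 FPKM on average, in which each neighbour overlapped with the next. The place of Gapdh rests on its own entry (61.8 CPM in Ctrl), against 628 CPM when its pseudogenes are added. Pfkp (3.46 ± 1.66 FPKM) and Hk2 (0.118 ± 0.0361 FPKM) were lowest and stood apart. In Model, Ldha stayed second to Aldoa, and Pkm (50.3 ± 7.36 FPKM) and Pgk1 (48.8 ± 4.45 FPKM) overlapped. In YHY, Ldha was the fourth at 36.7 ± 4.85 FPKM, overlapping with Pgk1 (42.9 ± 6.88 FPKM). The 10 genes together held 2491 ± 240 CPM in Ctrl mice, 1769 ± 227 in Model mice and 1755 ± 201 in YHY mice.

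Among the genes of the first step, Hk1 encodes the hexokinase that binds mitochondria and is used by most tissues. It held 84.8, 52.5, 85.0 and 141 CPM in Ctrl 1 to 4, 85.6, 84.6, 66.6 and 98.6 in Model 1 to 4, and 122, 82.2, 181 and 78.1 in YHY 1 to 4. The 3 groups overlapped, and Ctrl 4 and YHY 3 were the highest of their groups. Model differed from Ctrl by a log2 fold change of -0.12 (SE 0.28, adjusted P = 0.779), which turned to 0.19 with library size alone and no mitochondrial transcripts and to 0.13 without Ctrl 4. For YHY against Model it was 0.47 (SE 0.29, adjusted P = 0.300). Hk2, the insulin-responsive hexokinase of muscle and fat, was close to the detection limit in this tissue with 16 to 47 counts per mouse. It held 0.864, 0.873, 0.416 and 0.660 CPM in Ctrl 1 to 4, 0.515, 1.19, 1.00 and 1.62 in Model, and 1.37, 2.38, 1.38 and 1.82 in YHY. The mean was 0.703 ± 0.215 CPM in Ctrl mice, 1.08 ± 0.459 in Model mice and 1.74 ± 0.475 in YHY mice. Neither comparison passed (log2 fold change 0.62, adjusted P = 0.292, and 0.68, adjusted P = 0.332), although all YHY mice (1.37 to 2.38 CPM) exceeded all Ctrl mice (0.416 to 0.873 CPM), a comparison of groups that was not tested.

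The phosphofructokinase genes encode the subunits of the enzyme of the committed step, named for liver (Pfkl), muscle (Pfkm) and platelet (Pfkp). Pfkm held 25.9, 24.7, 31.3 and 36.0 CPM in Ctrl 1 to 4 and 16.4, 14.5, 13.6 and 15.6 CPM in Model 1 to 4. All Model mice were below all Ctrl mice, and Pfkm fell by 0.97 on the log2 scale (SE 0.16, adjusted P = 0.000230). In YHY 1 to 4, Pfkm stood at 16.7, 22.0, 20.9 and 16.4 CPM, between the other groups. All YHY mice lay above all Model mice, the closest pair at 16.42 and 16.40 CPM, and the exact permutation test gave its smallest possible P for 4 against 4 mice (0.0286). Over all genes, however, the log2 fold change of 0.34 (SE 0.16) did not pass (adjusted P = 0.170).

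Pfkl, the subunit with the highest level of these genes in Model, held 53.1, 44.1, 54.8 and 88.6 CPM in Ctrl 1 to 4, 61.6, 71.5, 69.7 and 76.0 in Model, and 63.6, 43.5, 75.0 and 36.3 in YHY. The groups overlapped, with a log2 fold change of 0.21 (adjusted P = 0.498) for Model against Ctrl, which turned to -0.25 with library size alone, and of -0.35 (adjusted P = 0.341) for YHY against Model. Pfkp held 45.5, 27.5, 34.7 and 77.9 CPM in Ctrl 1 to 4, 28.6, 37.0, 34.5 and 43.5 in Model, and 54.1, 40.3, 56.4 and 32.8 in YHY. Ctrl 4 was the highest Ctrl mouse, the groups overlapped, and Pfkp did not pass in either comparison (log2 fold change -0.37, adjusted P = 0.291, and 0.36, adjusted P = 0.414).

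Within each mouse the balance of these subunits can be read without any scaling between libraries. Of their summed FPKM, Pfkl took 42.0% ± 1.68 in Ctrl mice, 59.2% ± 1.89 in Model mice and 46.5% ± 5.88 in YHY mice, and the Model mice (56.7% to 61.1%) did not overlap with the mice of the other groups. Pfkm took 42.3% ± 4.92 in Ctrl mice, 25.6% ± 3.04 in Model mice and 33.8% ± 6.91 in YHY mice. In YHY 2 and YHY 4 the Pfkm share was 40.9% and 38.4%, inside the Ctrl range of 36.1% to 46.5%, whereas in YHY 1 and YHY 3 it was 27.0% and 28.8%, inside the Model range of 23.9% to 30.2%. These shares were chosen after the values had been seen and carry no test.

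**Figure D2:**
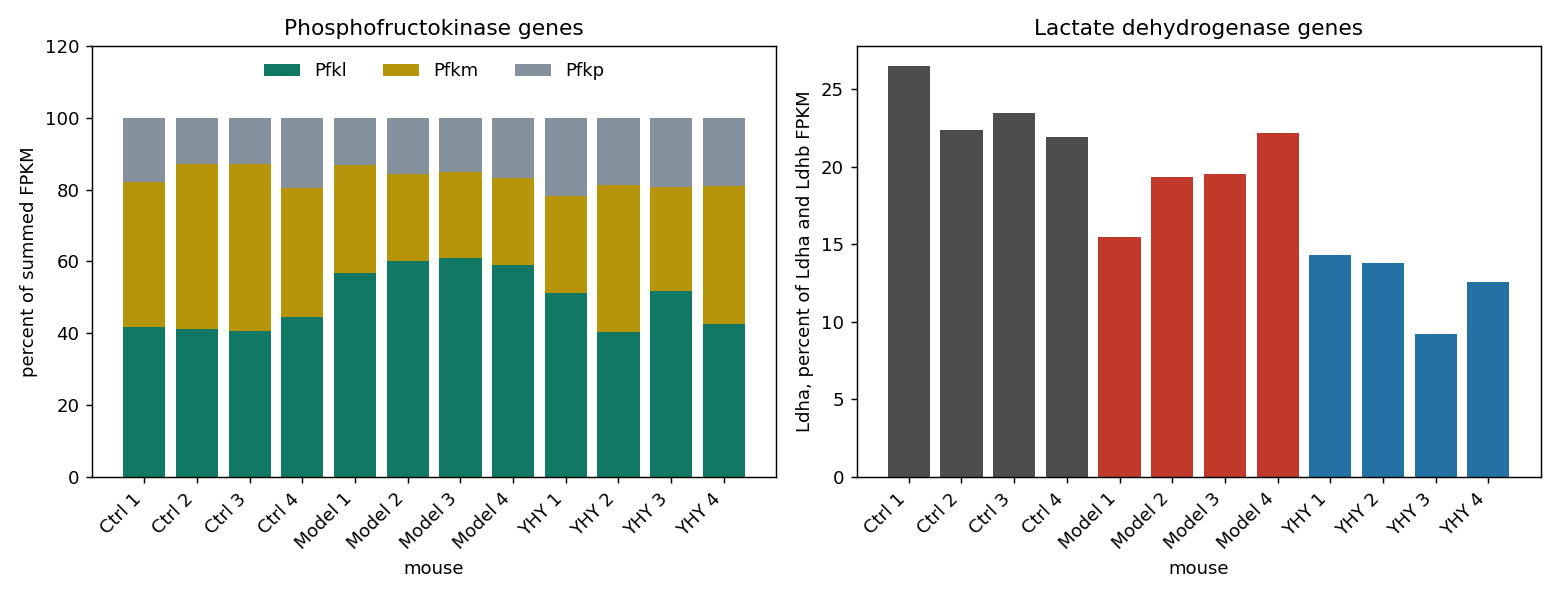
Left, share of each phosphofructokinase gene in their summed FPKM for each mouse (x axis), in percent; right, Ldha as percent of the summed FPKM of Ldha and Ldhb, with bars starting at 0. Pfkl takes its highest shares in the 4 Model mice (56.7% to 61.1%), and the Ldha share of every YHY mouse (9.19% to 14.3%) is below that of every Model mouse (15.5% to 22.2%).

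Aldoa, the muscle-type aldolase that also serves most other tissues, was the most abundant of the 10 genes. It held 958, 1204, 902 and 1209 CPM in Ctrl 1 to 4, 1181, 762, 821 and 769 in Model 1 to 4, and 914, 718, 1072 and 988 in YHY 1 to 4. Model 1 lay with the Ctrl mice and the other Model mice below all of them. With all mice, Model stood at -0.27 relative to Ctrl on the log2 scale (SE 0.20, adjusted P = 0.289), a value that turned to 0.04 with library size alone and no mitochondrial transcripts. Without Model 1 it was -0.50 (adjusted P = 0.0434, against 0.0434 to 0.4996 over the mice left out in turn). For YHY against Model it was 0.06 (SE 0.20, adjusted P = 0.879), and -0.0196 without YHY 3, -0.00449 without Model 2 and -0.000843 without Model 4. Model 1 also had the lowest share of mitochondrial transcripts among the db/db mice, 41.2% of its counts against 53.4% to 64.6% in the other db/db mice and 18.4% to 22.7% in Ctrl. The part of this difference in the result was not tested.

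Gapdh, whose enzyme makes NADH at the start of the lower pathway and whose mRNA is a common reference in expression assays, could not be measured with confidence. It held only 903 to 3665 counts per mouse. The count table also lists 398 pseudogenes described as copies of it, 138 of them with counts, and these together held 143907 counts over the 12 mice against 25327 for Gapdh itself, or 85.0% of the total of both. How reads that match several copies were counted is not stated. A single processed pseudogene, Gm13394 (ENSMUSG00000083773, chromosome 2, 28823622 to 28824621), held 15159 to 19785 counts in Ctrl mice, 2832 to 7736 in Model mice and 2336 to 3812 in YHY mice.

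For the Gapdh entry alone, values were 58.4, 95.9, 41.7 and 51.3 CPM in Ctrl 1 to 4, 118, 96.4, 93.8 and 48.5 in Model, and 34.4, 71.4, 58.2 and 124 in YHY. All groups overlapped, with a log2 fold change of 0.53 (SE 0.35, adjusted P = 0.242) for Model against Ctrl and of -0.31 (SE 0.34, adjusted P = 0.607) for YHY against Model. Gm13394 went from 458 ± 9.88 CPM in Ctrl to 166 ± 56.5 in Model and fell by 1.46 on the log2 scale (SE 0.19, adjusted P = 5.09e-05). Summed with all its pseudogenes, Gapdh stood at 628 ± 59.2 CPM in Ctrl mice, 400 ± 116 in Model mice and 315 ± 93.4 in YHY mice. The sum fell by 0.65 on the log2 scale in Model against Ctrl (SE 0.23, adjusted P = 0.0325 by the same edgeR test), opposite in sign to the entry for Gapdh alone, and did not pass in YHY against Model (-0.34, SE 0.23, adjusted P = 0.340). Gapdh's own share of these counts was 7.00% to 13.4% in Ctrl and 17.3% to 26.1% in Model, and the sign for this gene differs with whether the copies are added. For the other members, pseudogenes held at most 0.704% of the counts (Pkm).

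**Figure D3:**
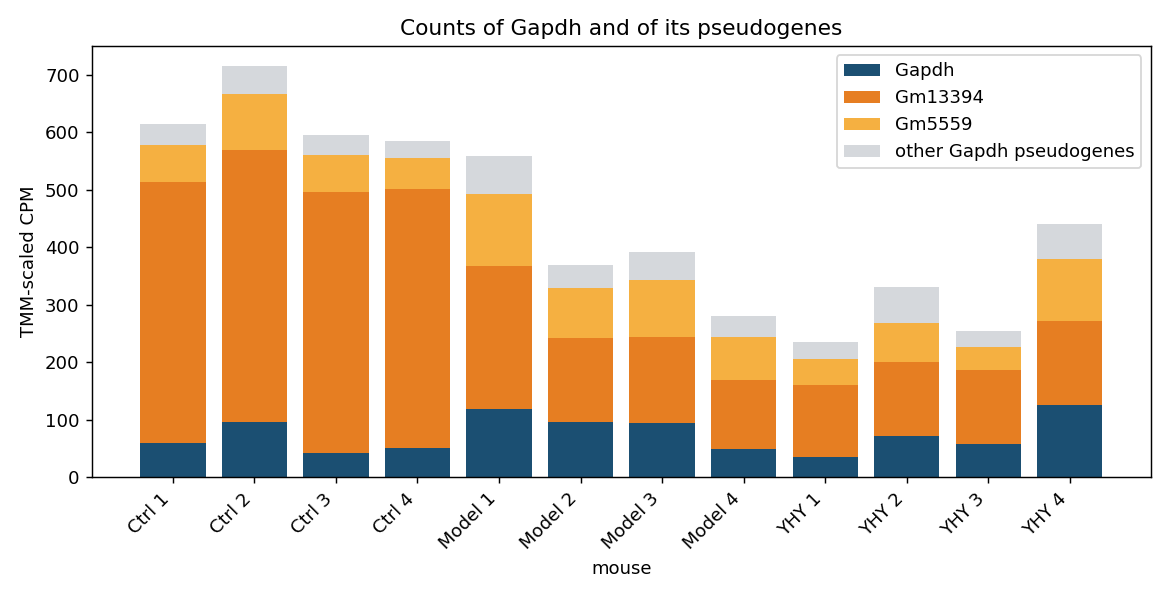
TMM-scaled CPM (y axis, from 0) of Gapdh, of its pseudogenes Gm13394 and Gm5559 and of its other pseudogenes, stacked for each of the 12 mice (x axis). Gm13394 makes up most of each Ctrl bar (450.1 to 473 CPM) and is lower in every Model mouse (121 to 249 CPM), while Gapdh itself ranges from 34.4 to 124 CPM over all mice.

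Pgk1 makes the first ATP of the lower pathway and is encoded on the X chromosome (ENSMUSG00000062070, X, 105230706 to 105247305, in GRCm39 by the submitters' processing notes). It held 322, 281, 331 and 329.7 CPM in Ctrl 1 to 4 and 112, 97.7, 107 and 122 CPM in Model 1 to 4. No Model mouse came near the Ctrl range, and Pgk1 fell by 1.53 on the log2 scale (SE 0.15, adjusted P = 5.53e-06), to a level 0.347 times that of Ctrl. In YHY 1 to 4 it held 98.1, 117, 87.7 and 82.2 CPM, overlapping with Model (log2 fold change -0.19, SE 0.15, adjusted P = 0.442). Whole tissue was sequenced, so less RNA per cell and fewer cells that carry the RNA cannot be told apart for this or any other gene.

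Pkm yields the M1 and M2 forms of pyruvate kinase, which gene counts do not separate. It held 228, 191, 222 and 376 CPM in Ctrl 1 to 4, 262, 201, 254 and 289 in Model, and 358, 300.2, 347 and 216 in YHY. Ctrl 4 was again the top Ctrl mouse and the groups overlapped. Model differed from Ctrl by -0.01 on the log2 scale (SE 0.22, adjusted P = 0.966), which turned to 0.09 with upper-quartile scaling and 0.29 with library size alone and no mitochondrial transcripts, and for YHY against Model the value was 0.28 (SE 0.22, adjusted P = 0.437). Set against Pkm in the same library, Pgk1 FPKM was 293% ± 65.3 of Pkm FPKM in Ctrl mice, 97.8% ± 7.04 in Model mice and 72.3% ± 15.9 in YHY mice, and Ldha was 359% ± 101, 139% ± 11.8 and 63.1% ± 20.0 of it. The Pkm value for Model against Ctrl was 0.19 without Ctrl 4 and 0.0766 without Model 2. The ratios, chosen after the values had been seen and carrying no test, do not depend on the scaling between libraries.

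Ldha encodes the lactate dehydrogenase subunit that favours lactate formation (ENSMUSG00000063229, chromosome 7, 46490899 to 46505051, GRCm39). It held 609, 543, 576 and 522 CPM in Ctrl 1 to 4, 229.8, 209, 224 and 255 in Model 1 to 4, and 137, 119, 100.2 and 130.1 in YHY 1 to 4. The 3 groups did not overlap at any point, in the order Ctrl, Model, YHY. Ldha fell by 1.29 on the log2 scale in Model against Ctrl (SE 0.15, adjusted P = 1.67e-05) and by a further 0.92 in YHY against Model (SE 0.15, adjusted P = 0.00170), and the exact permutation test gave P = 0.0286, its smallest possible value, in both. Treated mice were farther from Ctrl in Ldha than untreated db/db mice, a distance that was not itself tested. As a share of the summed FPKM of Ldha and Ldhb, whose subunit favours the oxidation of lactate, Ldha took 23.5% ± 2.04 in Ctrl mice, 19.1% ± 2.77 in Model mice and 12.5% ± 2.30 in YHY mice. The Model range of this share overlapped with Ctrl, and that of YHY lay below both.

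Mitochondrial transcripts took 19.5% ± 2.12 of the counts in Ctrl mice, 52.2% ± 7.68 in Model mice and 56.8% ± 5.21 in YHY mice. Scaling therefore matters for every level compared between libraries, but not for shares and ratios taken within a mouse. Median log2 fold change over all genes in Model against Ctrl was 0.04 with TMM, 0.14 with upper-quartile scaling, -0.39 with library size alone, and 0.37 with library size alone and no mitochondrial transcripts. A scaling moves all genes by nearly the same amount, so values relative to that median differ little between scalings by construction. Relative to it, over these scalings and DESeq2's, Pgk1 stood at -1.57 to -1.56, Ldha at -1.33 and Pfkm at -1.02 to -1.01. On the same scale Hk1 stood at -0.18 to -0.15, Aldoa at -0.33 to -0.29, Pkm at -0.07 to -0.05 and Pfkl at 0.14 to 0.18, so the turns of sign given for these genes under a scaling are shifts of the whole table. Pgk1, Ldha and Pfkm passed the test under each of these scalings. For YHY against Model the median over all genes was 0.02 with TMM and 0.16 with library size alone and no mitochondrial transcripts, and Ldha relative to it stood at -0.95 to -0.94. Library size alone also placed Pfkp (-0.85, adjusted P = 0.0436) and Aldoa (-0.68, adjusted P = 0.0455) among the genes that fell, and library size alone without mitochondrial transcripts, a setting that changes both choices at once, placed Gapdh (0.86, adjusted P = 0.0315) among those that rose. A looser rule called genes more than 1.2 times apart at P below 0.05 without adjustment, which 46.9% of all genes met for Model against Ctrl and 28.6% for YHY against Model. By it 3 and 2 of the 10 genes passed, the second count through Pfkm.

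The promoters of the genes that fell are shown because Pgk1 and Ldha are textbook targets of hypoxia-inducible factor, whose binding element holds the letters ACGTG. All 10 genes matched the RefSeq promoter table (GRCm38.p6, another build than that of the count table), with 18 start sites in all. The 250 bases before each start were searched for ACGTG on both strands, where CACGTG counts as overlapping matches of both strands. ACGTG was found before 8 of the 18 start sites, in 6 of the 10 genes, and in 16.6% of all 32851 promoters of the table. It was present before the first listed start of Pgk1, Ldha and Pfkm, in which capitals mark the matches:
Pgk1 (chrX:106186850-106187099, + strand): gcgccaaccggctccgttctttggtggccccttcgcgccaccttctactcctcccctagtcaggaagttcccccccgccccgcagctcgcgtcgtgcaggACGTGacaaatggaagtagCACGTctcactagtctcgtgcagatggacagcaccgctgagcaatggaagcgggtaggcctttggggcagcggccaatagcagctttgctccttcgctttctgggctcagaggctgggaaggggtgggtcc
Ldha (chr7:46845554-46845803, + strand): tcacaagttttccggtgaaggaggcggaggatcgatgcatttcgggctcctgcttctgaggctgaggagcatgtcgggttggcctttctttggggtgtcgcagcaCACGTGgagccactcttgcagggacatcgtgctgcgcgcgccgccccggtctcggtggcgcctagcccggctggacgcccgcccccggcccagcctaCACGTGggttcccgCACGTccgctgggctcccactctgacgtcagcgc
Pfkm (chr15:98092339-98092588, + strand): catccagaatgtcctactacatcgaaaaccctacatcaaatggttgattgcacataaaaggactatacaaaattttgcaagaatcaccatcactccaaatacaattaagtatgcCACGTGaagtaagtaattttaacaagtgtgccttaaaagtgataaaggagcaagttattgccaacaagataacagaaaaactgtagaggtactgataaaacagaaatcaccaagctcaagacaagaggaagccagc
The Ldha window held 5 matches, in which CACGTG occurred at 2 places, and the Pgk1 and Pfkm windows held 2 each. Before the other start of Ldha there were 0 matches, and before the other starts of Pfkm 1, 0 and 0. Hk2 also held 2, Aldoa and Pkm held 1 each before some of their starts, and Hk1, Pfkl, Pfkp and Gapdh held 0 in these windows. The windows before Aldoa starts 2 and 3 overlap and share the same match, which was counted for both starts. Matching letters are a description of the sequence and were not set against binding data.

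Among 17 other genes of the pathway, 14 were tested and 4 fell, 3 rose and 7 did not pass in Model against Ctrl, with a median log2 fold change of 0.04. Over all genes tested, 18.5% fell and 19.6% rose in that comparison, and counts this small are no result about the list as a whole. Tpi1, whose enzyme interconverts the products of aldolase, held 695, 736, 686 and 720.1 CPM in Ctrl 1 to 4 and 279, 237, 233 and 225 CPM in Model 1 to 4. It fell by 1.54 on the log2 scale (SE 0.14, adjusted P = 3.51e-06). Pgam1, which moves the phosphate group of phosphoglycerate, fell by 1.52 (SE 0.19, adjusted P = 2.67e-05), and Ldhb by 0.89 (SE 0.17, adjusted P = 0.000659). Eno3, the muscle enolase, rose from 3.15 ± 1.02 CPM to 15.96 ± 5.79 CPM (log2 fold change 2.34, SE 0.28, adjusted P = 1.98e-05). The other genes that passed, named after their values were seen, were Eno1, the common enolase (log2 fold change -0.85, adjusted P = 0.00529), Hk3 (1.77, adjusted P = 0.00329) and Eno2 (1.32, adjusted P = 0.0159). The genes that fell were thus among the abundant ones (Pgam1, the least abundant, at 145 CPM in Ctrl), and those that rose held 1.39 to 3.15 CPM on average in Ctrl. In YHY against Model 1 of the 14 rose and 0 fell by edgeR, while 1 rose and 2 fell by DESeq2 and 3 were higher and 2 lower at an unadjusted P below 0.05. The median was -0.12, and of all genes tested 7.62% fell and 5.63% rose. The gene called by edgeR was Gapdhs, the sperm form of Gapdh, with 1, 1, 6 and 12 counts in Ctrl 1 to 4, 0 to 2 in Model and 8 to 13 in YHY, for which no fold is given.

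**Figure D4:**
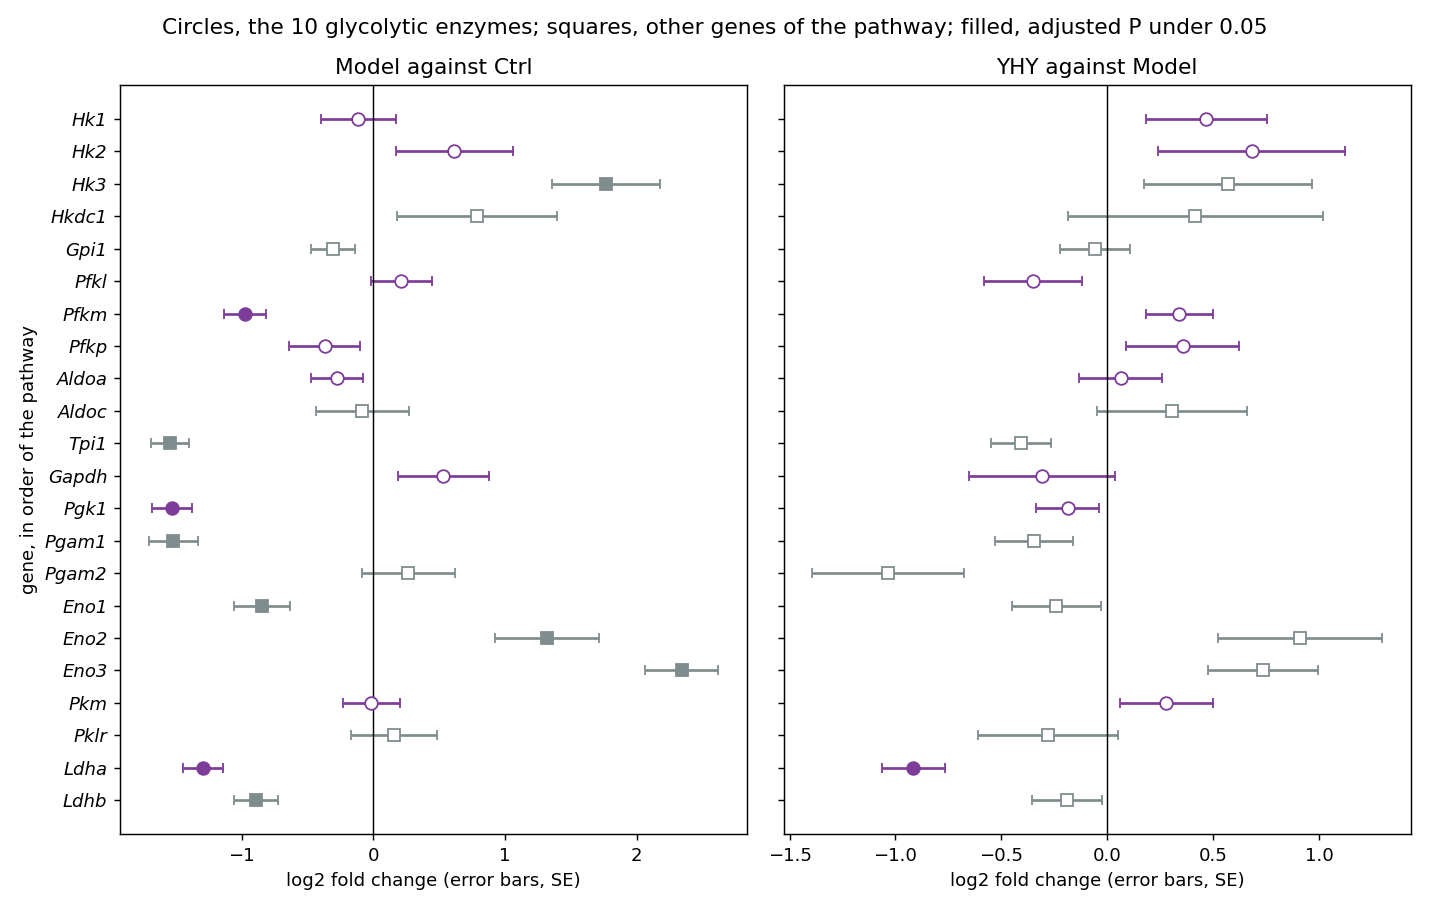
Log2 fold changes (x axis, error bars SE) of the 10 genes (circles) and of 12 other tested genes of the pathway (squares, without Gapdhs), in pathway order from top to bottom, in Model against Ctrl (left) and YHY against Model (right); filled symbols have an adjusted P below 0.05. On the left Tpi1 (-1.54), Pgk1 (-1.53), Pgam1 (-1.52) and Ldha (-1.29) lie far to the left of 0 under TMM scaling, and on the right Ldha (-0.92) is the filled circle.

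Enzymes that set fructose bisphosphate levels, carriers and regulators were counted in the same way. Over all genes tested, 18.5% fell and 19.6% rose in Model against Ctrl, and 7.62% fell and 5.63% rose in YHY against Model. With lists this short, the counts are no result about any list as a whole. Of 5 genes for the bifunctional enzymes and Tigar that control fructose 2,6-bisphosphate, the activator of phosphofructokinase, 2 rose in Model against Ctrl, Pfkfb4 (log2 fold change 0.97, adjusted P = 0.00231) and Pfkfb1 (1.92, adjusted P = 0.00342), and 0 passed in YHY against Model by edgeR, by DESeq2 or at an unadjusted P below 0.05. The medians were 0.55 and 0.19. Of 9 glucose and lactate carriers, Slc2a4 (0.81, adjusted P = 0.00170) and the lactate exporter Slc16a3 (0.93, adjusted P = 0.0292) rose and Bsg, a chaperone of lactate carriers, fell (-0.78, adjusted P = 0.00280). In YHY against Model, Slc2a2, the basolateral glucose carrier of the proximal tubule, fell (-1.62, adjusted P = 0.0256), the 1 carrier that passed, although its groups overlapped (exact permutation P = 0.0571). DESeq2 had 2 carriers lower in Model. The medians of the carriers were 0.46 and 0.21. Among 6 genes of gluconeogenesis, Fbp1, whose enzyme opposes phosphofructokinase, fell in both comparisons (-1.31, adjusted P = 0.000325, and -1.09, adjusted P = 0.00594). By DESeq2 2 of the 6 fell in Model and 3 in YHY against Model. Pck1 (0.92, adjusted P = 0.0174, with overlapping groups and an exact permutation P of 0.0571), Pck2 (0.93, adjusted P = 0.000237) and Fbp2 (0.89, adjusted P = 0.0170) rose in Model, and the medians of these 6 genes were 0.23 and -0.46.

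Among transcription regulators of glycolysis, Hif1a, the oxygen-regulated subunit of hypoxia-inducible factor, fell in Model against Ctrl (log2 fold change -0.69, adjusted P = 0.0193), as did Egln1, the oxygen sensor that marks it for destruction (-0.51, adjusted P = 0.00342), while Mlxip, a glucose sensor, rose (1.13, adjusted P = 0.000369). In YHY against Model, Myc (1.55, adjusted P = 0.00951) and Mlxipl (1.28, adjusted P = 0.00785) rose, and Hnf4a (-0.94, adjusted P = 0.00900) and Egln1 (-0.57, adjusted P = 0.00750) fell. Of 12 other hypoxia-induced genes, 4 fell and 2 rose in Model, with a median of -0.00268 (-0.10 in YHY against Model). The shares over all genes tested were 18.5% and 19.6% in Model against Ctrl, and 7.62% and 5.63% in YHY against Model. Bnip3 (-1.07, adjusted P = 1.77e-05), P4ha1 (-1.02, adjusted P = 3.18e-05) and Ero1a (-0.67, adjusted P = 0.00796) fell and Pdk1, which holds pyruvate back from the mitochondrion, rose (0.93, adjusted P = 0.000376). In YHY against Model 2 of these 12 fell, Car9 (-1.19, adjusted P = 0.0191) and Mxi1 (-0.45, adjusted P = 0.0268), and 2 rose, Kdm3a (0.59, adjusted P = 0.0337, with overlapping groups and an exact permutation P of 0.0571) and P4ha2 (0.52, adjusted P = 0.0386). By DESeq2 3 of the 12 rose in each comparison, and 4 and 2 fell.

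Over the 12 mice, the tested protein-coding gene with the profile nearest to Pgk1 was Mrpl44 (mean absolute difference of centred log2 CPM 0.10, against a median of 0.78 over 14216 genes). The nearest to Ldha was Dhrs1 (0.11, median 0.87) and to Pfkm Wdr6 (0.07, median 0.53).

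Markers of nephron segments were counted in the same way. Among all genes tested, 18.5% fell and 19.6% rose in Model against Ctrl, and 7.62% fell and 5.63% rose in YHY against Model. Of 10 proximal tubule markers, 5 fell and 0 rose in Model against Ctrl (6 and 0 at an unadjusted P below 0.05 and by DESeq2), with medians of -0.82 there and -0.65 in YHY against Model, and their summed level was 6096 ± 923 CPM in Ctrl mice, 4014 ± 370 in Model mice and 3006 ± 1168 in YHY mice. Slc34a1, the most abundant, did not pass (log2 fold change 0.06, adjusted P = 0.893), whereas Slc7a13, of the last proximal segment, fell by 2.33 (adjusted P = 2.68e-05) and again in YHY against Model, by 1.11 (adjusted P = 0.0162), when 1 of the 10 passed (5 by DESeq2). Slc7a13 held 438 to 901 CPM in Ctrl mice, 116 to 181 in Model mice and 43.3 to 112 in YHY mice. The part of tubule composition in the fall of Ldha was not tested.

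Of 7 markers of the loop and distal tubule, 3 fell and 1 rose in Model, Umod by -2.86 (adjusted P = 5.43e-05), while Slc12a1, the most abundant, did not pass (-0.05, adjusted P = 0.910), and 1 fell in YHY, Pvalb (-1.59, adjusted P = 0.0102). Their sum was 2299 ± 457 CPM in Ctrl mice, 1677 ± 203 in Model mice and 1886 ± 420 in YHY mice. Of 8 collecting duct markers, 2 fell in Model, Aqp3 (-1.72, adjusted P = 0.000389) and Aqp2, the most abundant (-1.18, adjusted P = 0.0354, with overlapping groups and an exact permutation P of 0.0571), against 1 by DESeq2. Of the 8, 1 fell in YHY against Model, Atp6v1g3 (-1.13, adjusted P = 0.00568). Their sum was 943 ± 398, 541 ± 107 and 440 ± 165 CPM in the 3 groups. Ctrl 4, the Ctrl mouse highest in Hk1, Pfkl, Pfkm, Pfkp, Aldoa and Pkm, had the highest collecting duct sum (1503 CPM, against 658 to 951 in the other Ctrl mice) and the lowest proximal tubule sum of its group (4987 against 5942 to 7231 CPM). The part of these differences in the levels of the named genes was not tested.

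Of 6 podocyte markers, 3 rose in Model, Nphs1 most clearly (1.86, adjusted P = 5.44e-05), and 0 passed in YHY by edgeR or DESeq2 (3 lower at an unadjusted P below 0.05), with sums of 144 ± 20.5, 198 ± 74.6 and 138 ± 43.4 CPM and Podxl the most abundant. Of 8 endothelial and mural markers, Pdgfrb rose in Model (0.51, adjusted P = 0.0249) and Myh11 in YHY (0.56, adjusted P = 0.0439, with overlapping groups and an exact permutation P of 0.0857), and Plvap, the most abundant, passed in neither, with sums of 356 ± 41.1, 367 ± 38.9 and 390.1 ± 78.9 CPM. Of 7 immune markers tested, 1 rose and 1 fell in Model, Cd74 by -1.21 (adjusted P = 0.00136), and sums were 235 ± 52.2, 222 ± 33.2 and 309 ± 123 CPM with Lyz2 the most abundant, while 0 passed in YHY by edgeR or DESeq2 (3 higher at an unadjusted P below 0.05). Of 6 red blood cell markers, 3 fell and 1 rose in Model and 2 rose in YHY, among them Hbb-bs (-1.46, adjusted P = 0.00501) and Alas2 (1.71, adjusted P = 0.0274), with sums of 456 ± 166, 368 ± 101 and 667 ± 326 CPM and Hba-a1 the most abundant. By DESeq2 the counts differed in that 1 loop and distal tubule marker rose and 2 fell in YHY against Model, 1 endothelial or mural marker fell there, 3 red blood cell markers rose there and 2 immune markers rose in Model. Skeletal muscle and fat markers, whose tissues are rich in Hk2, were close to 0. Of 6 in each list 1 was tested, Mylpf and Cidec, and neither gene passed in either comparison. Their sums were at most 3.62 and 2.57 CPM in any mouse, with Ckm at 0 to 2 counts, Adipoq at 0 to 10 and Tnnc2 at 0 in every mouse. Median log2 fold changes in Model against Ctrl were -0.05 for the loop and distal tubule, -0.11 for the collecting duct, 0.66 for podocytes, 0.10 for endothelial and mural cells, 0.02 for immune cells and -1.01 for red blood cells. Those of YHY against Model were 0.05, -0.25, -0.35, 0.08, 0.51 and 0.95 in that order. The part of these markers in the results was not tested.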

How the data were processed

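The authors deposited raw counts of reads per gene, with gene lengths and coordinates, for 12 kidney mRNA libraries. Their processing notes name HISAT2 2.2.1, featureCounts 2.0.1 and GRCm39. The use of strand and the handling of reads with several matches are not given in the sources used here. No result was taken from the tables of the authors' own comparisons and pathways, but the mice whose values the comparison tables hold set an alternative. It held 9 of the 12 mice, without Ctrl 2, Model 1 and YHY 4. In the table of YHY against Model, the header names the Model columns otherwise (as Model 1, YHY 3 and YHY 4), and the choice follows their values, which are proportional to the counts of Model 2, 3 and 4.

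From the counts, edgeR 4.0.16 in R 4.3.3 fitted the 3 groups of 4 mice together (TMM, filterByExpr, glmQLFit and glmQLFTest, two-sided), with Benjamini-Hochberg adjustment over 17431 genes. Exact permutation tests were two-sided on CPM. DESeq2 1.42.0 was an alternative.

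The members and gene lists were chosen with earlier results of these data known. The 10 members were named mouse by mouse. Of each pathway list up to 4 called genes of smallest adjusted P were named, and of each marker list the most abundant gene and the called gene of smallest adjusted P. For each called member the gene of nearest profile was named. Isozyme shares, ratios to Pkm, the sum of Gapdh with its pseudogenes and leaving out Ctrl 4 and Model 1 together were chosen after seeing the data. So were the split of the YHY mice by Fbp1 and the genes named beside Fbp1 and Ldha for their order. Pseudogenes were counted from the deposited descriptions. Replicate libraries differed by at least 17.3 in chi-square per degree of freedom, so none was counted as a repeat. Figures were drawn with matplotlib 3.10.9.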

Additional observations from a re-analysis of the deposited data

Results flagged for a closer look

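Of 33 groups of 4 mice examined (the 10 genes and the sum of Gapdh with its pseudogenes, in 3 groups), 1 held a mouse far from the others, and chance gives about 1 in 20. In it Aldoa stood at 1181 CPM in Model 1, while Model 2 to 4 ran from 762 to 821 CPM.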

How the results depend on the processing

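With 4 mice per group, SEs of the log2 fold changes ran from 0.15 (Pgk1, Ldha) to 0.44 (Hk2, which rests on 16 to 47 counts). The count of 3 genes that passed in Model against Ctrl was 3 or 4 under the other settings, and 5 with library size alone. In YHY against Model it was 1, and 2 at a 1.2-fold difference with an unadjusted P below 0.05. Pgk1, Ldha and Pfkm in the first comparison (highest adjusted P 0.00928 over 10 other settings and 0.00154 with 1 mouse left out) and Ldha in the second (highest 0.0138 and 0.00761) passed under each.

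Values that changed sign belong to genes that did not pass with TMM and all mice. With library size alone in place of TMM and no mitochondrial transcripts, log2 fold changes of Model against Ctrl were 0.19 for Hk1, 0.0397 for Aldoa and 0.29 for Pkm. With library size alone Pfkl was at -0.25. These settings shift all genes alike, and relative to the median of all genes no sign of these genes changed under a scaling. Pkm was at 0.0931 with upper-quartile scaling and 0.0303 with at least 10 counts in every mouse. Leaving out Ctrl 4 and Model 1 together, chosen after seeing the data, gave 0.11 for Hk1, 0.0343 for Pfkp and 0.16 for Pkm, and adding its pseudogenes, chosen likewise, gave -0.65 for Gapdh. With 1 mouse left out, Hk1 ranged from -0.31 to 0.13, Pkm from -0.13 to 0.19 and, in YHY against Model, Aldoa from -0.0196 to 0.24. The cause of these changes of sign was not tested.

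Over all genes in Model against Ctrl, 51.5% of calls were higher, against 21.4% with library size alone, 60.6% with upper-quartile scaling and 77.7% with library size alone and no mitochondrial transcripts; in YHY against Model 42.5% and, in the last of these settings, 64.4%. YHY against Model called 2311 genes, 1178 with library size alone, 1385 with the 8 mice alone, 1482 without Ctrl 4 and Model 1, and 1146 to 2721 with 1 mouse left out. Mice share only a number between groups. Deviations of same-numbered mice correlated at -0.182 to 0.0607, 2 of 4 and 0 of 4 mice matched their own number best, and a replicate block called 3 and 1 of the 10 genes and 6289 and 1920 genes in all.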

Other observations

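Several members share part of their span with another gene of the table, and the use of strand in counting is not given. Hk1 overlaps Hk1os on the other strand (285 counts over the 12 mice, against 34688 for Hk1), Pfkm overlaps Senp1 by 1156 bases (3910 against 8035 counts), Pfkp overlaps Pitrm1 by 748 bases (4664 against 15576 counts), and Aldoa overlaps Tlcd3b (372 against 348586 counts). Reads of such pairs could not be separated here.

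Fbp1 and Ldha encode enzymes of glucose production and of lactate handling, and in both genes the YHY mice lay below all Model mice and the Model mice below all Ctrl mice. Fbp1 held 483 to 584 CPM in Ctrl, 182 to 259 in Model and 61.8 to 134 in YHY. The order was not particular to these genes. Tpi1 (686 to 736, 225 to 279 and 166 to 202 CPM in Ctrl, Model and YHY) and Pgam1 (107 to 200, 47.2 to 56.5 and 31.9 to 46.3 CPM) had it too. By edgeR neither passed in YHY against Model (adjusted P = 0.0672 and 0.227). Slc7a13, Cubn, Egln1 and Mxi1 also had this order, and Eno3 had the reverse. Within YHY, the mice with low Fbp1, YHY 1 and YHY 3 (61.8 and 79.7 CPM), also had the lowest summed proximal tubule markers (1828 and 2311 CPM, against 3459 and 4426 in YHY 2 and YHY 4). Ldha stood at 137 and 100.2 CPM in YHY 1 and YHY 3 and at 119 and 130.1 CPM in YHY 2 and YHY 4. This split of the YHY mice was picked after the values had been seen. Neither the split nor the part of tubule composition in either gene was tested.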
